A study of Mus musculus with 12 samples.

Results

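The mitochondrial ribosomal proteins were described in regulatory T cells (Tregs) from fat and spleen. They were taken as the genes whose annotated symbol begins with Mrpl or Mrps and a digit, without pseudogenes, with at least 1 probe at a detection p under 0.05 on 3 or more arrays. Of 76 such symbols on the platform, 74 met the rule, 47 with a large subunit symbol (Mrpl) and 27 with a small subunit symbol (Mrps), among 15308 genes and unnamed probes tested. Mrpl35 and Mrps14 were detected on 0 arrays and have no value here. Of the 74 genes, 47 were detected on all 12 arrays, 27 on fewer, and the fewest for any of them was 7.

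The cells came from C57BL/6 mice on a high fat diet, from perigonadal white adipose tissue (PGWAT) or spleen. Mice were Foxp3Cre (control) or Tbetflox Foxp3Cre (Tbet flox), so both genotypes carry Foxp3Cre, in which Cre recombinase is made where the Foxp3 promoter is active, and only the second carries the floxed gene of the transcription factor T-bet (Tbx21). Each of the 4 groups (PGWAT control, PGWAT Tbet flox, spleen control, spleen Tbet flox) holds 3 single-colour Illumina arrays. The labels do not say whether the arrays of a group come from separate mice, so p-values measure the spread between these arrays, and the age and sex of the mice are not given in the sources used here.

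The mitochondrial ribosome makes the few respiratory chain and ATP synthase proteins that are encoded in mitochondrial DNA. Its rRNAs come from mitochondrial DNA, while all of its proteins are encoded in the nucleus, made in the cytosol and imported. The small subunit binds the mRNA and decodes it, and the large subunit joins the amino acids and releases the chain at the inner membrane. Activated T cells build more mitochondria and depend on this translation for their respiration.

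Some of the genes hold promoter motifs that their choice by name did not use. RefSeq promoters (GRCm38.p6, 250 bases before to 50 after the start of transcription) were at hand for 65 of the 74. The letters GCGCATGCG, the core of the motif of NRF1, a transcription factor of nuclear genes for mitochondria, were found on either strand in 7 of the 65 (10.8%), against 2.61% of 17492 protein-coding genes. The letters CCGGAAGT, bound by ETS factors such as GABPA, were found in 12 (18.5%), against 5.69%. The letters AAGATGGCG, the motif of YY1, were found in 7 (10.8%), against 2.14%. Among 56 cytosolic ribosomal protein genes the ETS letters were as frequent (19.6%), while the NRF1 and YY1 letters were each in 5.36%. At least 1 of the 3 motifs, which can overlap each other, was present in 25 of the 65 genes (38.5%), against 9.84% of protein-coding genes and 30.4% of 56 cytosolic ribosomal protein genes. The 17492 genes were not filtered by detection as the 74 were, so the 2 sets are unlike in that respect. A match is a description of the letters and not of binding.

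Named genes were chosen to show these stretches, each written in lower case with the motif in capitals, on the strand of the gene and from RefSeq GRCm38.p6. Mrpl22 (chr11:58171620-58171649, plus strand, from 44 to 15 bases before the start) and Mrpl17 (chr7:105811088-105811187, minus strand, the last 100 bases) carry the NRF1 letters. So does Mrpl9 (chr3:94443298-94443327, plus strand, from 38 to 9 bases before the start), where matches on both strands overlap. Mrps22 (chr9:98601680-98601779, minus strand, the last 100 bases) and Mrps18c (chr5:100798601-100798630, plus strand, from 158 to 129 bases before the start) carry the ETS letters, in Mrps18c on the opposite strand. The Mrps18c stretch overlaps the annotated gene Helq, which starts 159 bases from Mrps18c and runs the other way. The Mrpl22 and Mrpl9 stretches lie within the annotated extent of their own genes. Mrpl40 (chr16:18876638-18876737, minus strand, the last 100 bases), which had the smallest p of the large subunit for tissue in both genotypes, is shown with none of the 3 motifs.
Mrpl22: ggcctcggactGCGCATGCGtatagtcagc
Mrpl17: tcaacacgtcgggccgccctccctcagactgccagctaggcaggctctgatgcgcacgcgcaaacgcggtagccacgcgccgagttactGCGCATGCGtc
Mrpl9: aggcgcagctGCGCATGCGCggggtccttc
Mrps22: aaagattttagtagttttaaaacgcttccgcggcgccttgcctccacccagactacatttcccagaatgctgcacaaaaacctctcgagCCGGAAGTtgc
Mrps18c: gACTTCCGGcccgggaagcgcgggaagata
Mrpl40: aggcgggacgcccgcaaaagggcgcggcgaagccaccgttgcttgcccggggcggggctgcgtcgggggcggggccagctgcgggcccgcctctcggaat

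Many of the genes start back to back with a neighbour. Of the 65 genes, 23 (35.4%) have another protein-coding gene on the opposite strand that starts within 1000 bases and runs the other way. Among protein-coding genes, again not filtered by detection, 8.48% do. The 23 genes make 22 pairs with start sites 32 to 756 bases apart, since Mrps11 and Mrpl46, 1 gene of each subunit, form a pair with each other. Their starts lie 42 bases apart, and the last 40 bases before the start of Mrps11 (chr7:78783091-78783130, plus strand), shown because both genes read outward from them, hold none of the 3 motifs.
Mrps11: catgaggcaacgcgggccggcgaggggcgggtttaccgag
Mrps12 pairs with Sars2, the mitochondrial seryl-tRNA synthetase, Mrpl43 with Twnk, the mitochondrial DNA helicase, and Mrpl47 with Ndufb5, a subunit of respiratory complex I. Mrpl40 pairs with Hira, a histone chaperone, 113 bases away. These pairs were named after the list was seen.

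On each array 11252 to 17090 probes had a detection p under 0.01, the median raw signal ran from 82.4 to 115, and the number of arrays limits the precision. Within groups, pairs of PGWAT arrays correlated at 0.774 to 0.872 and pairs of spleen arrays at 0.979 to 0.991. The targeted gene Tbx21 measured 4.62, 7.40 and 4.96 (log2) on the PGWAT control arrays and 8.45, 4.86 and 4.54 on the PGWAT Tbet flox arrays. It measured 4.80, 6.03 and 4.95 on the spleen control arrays and 4.94, 4.98 and 4.71 on the spleen Tbet flox arrays. The highest Tbx21 level of all 12 was thus on the array labelled PGWAT Tbet flox 1, although its label names the group in which this gene is floxed. The cause was not tested, and whether the probe lies in the deleted part is not given in the sources used here. For Tbx21 limma gave adjusted p = 0.977 for genotype in PGWAT and 0.634 in spleen. Foxp3, the defining Treg factor, measured 5.44, 7.69 and 9.50 on the PGWAT control arrays and 7.62 to 8.91 on the other 9. Each tissue lay on 1 chip of its own, so tissue and chip cannot be told apart.

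In PGWAT Tregs the mitochondrial ribosomal protein genes were mostly lower than in spleen Tregs, in both genotypes, and none passed the threshold as higher. In control mice 16 of 74 were lower at a limma adjusted p under 0.05 (8 of 47 large and 8 of 27 small subunit genes), which is 21.6% of them, against 8.58% lower and 6.52% higher among all genes and probes tested and 9.73% lower among named genes. In Tbet flox mice 9 of 74 were lower (7 large and 2 small subunit genes, 12.2%), against 4.96% lower and 4.52% higher among all tested and 5.35% lower among named genes. On simulated data this fit made more false calls than its threshold allows where PGWAT arrays enter. The median difference, PGWAT minus spleen on the log2 scale, was -0.65 for the large and -0.94 for the small subunit in control mice, where the median of all tested was -0.12. In Tbet flox mice it was -0.68 and -0.88, where the median of all tested was -0.04. Fewer cells that make these RNAs and less RNA per cell cannot be told apart in such samples.

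The direction was widespread among the genes rather than carried by the called ones. Of the 74, 61 (82.4%) measured lower in PGWAT in control mice and 62 (83.8%) in Tbet flox mice, against 55.9% and 52.6% of all tested. In both genotypes 55 measured lower and 6 higher. The 3 PGWAT arrays lay below all 3 spleen arrays for 32 genes (43.2%) in control mice, where 23% of all tested did, and for 42 (56.8%) in Tbet flox mice, where 22.8% did. For 19 genes (25.7%) all 6 PGWAT arrays lay below all 6 spleen arrays, as for 8.02% of all tested. These 19 were Mrpl3, Mrpl11, Mrpl15, Mrpl16, Mrpl18, Mrpl22, Mrpl24, Mrpl30, Mrpl39, Mrpl40, Mrpl46, Mrpl47 and Mrpl58 of the large subunit and Mrps17, Mrps18c, Mrps31, Mrps33, Mrps34 and Mrps35 of the small. All 6 PGWAT arrays lay above spleen for 0 of the 74, and for 4.85% of all tested. The plot of all genes by array shows mostly blue PGWAT columns and mostly red spleen columns.

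**Figure D1:**
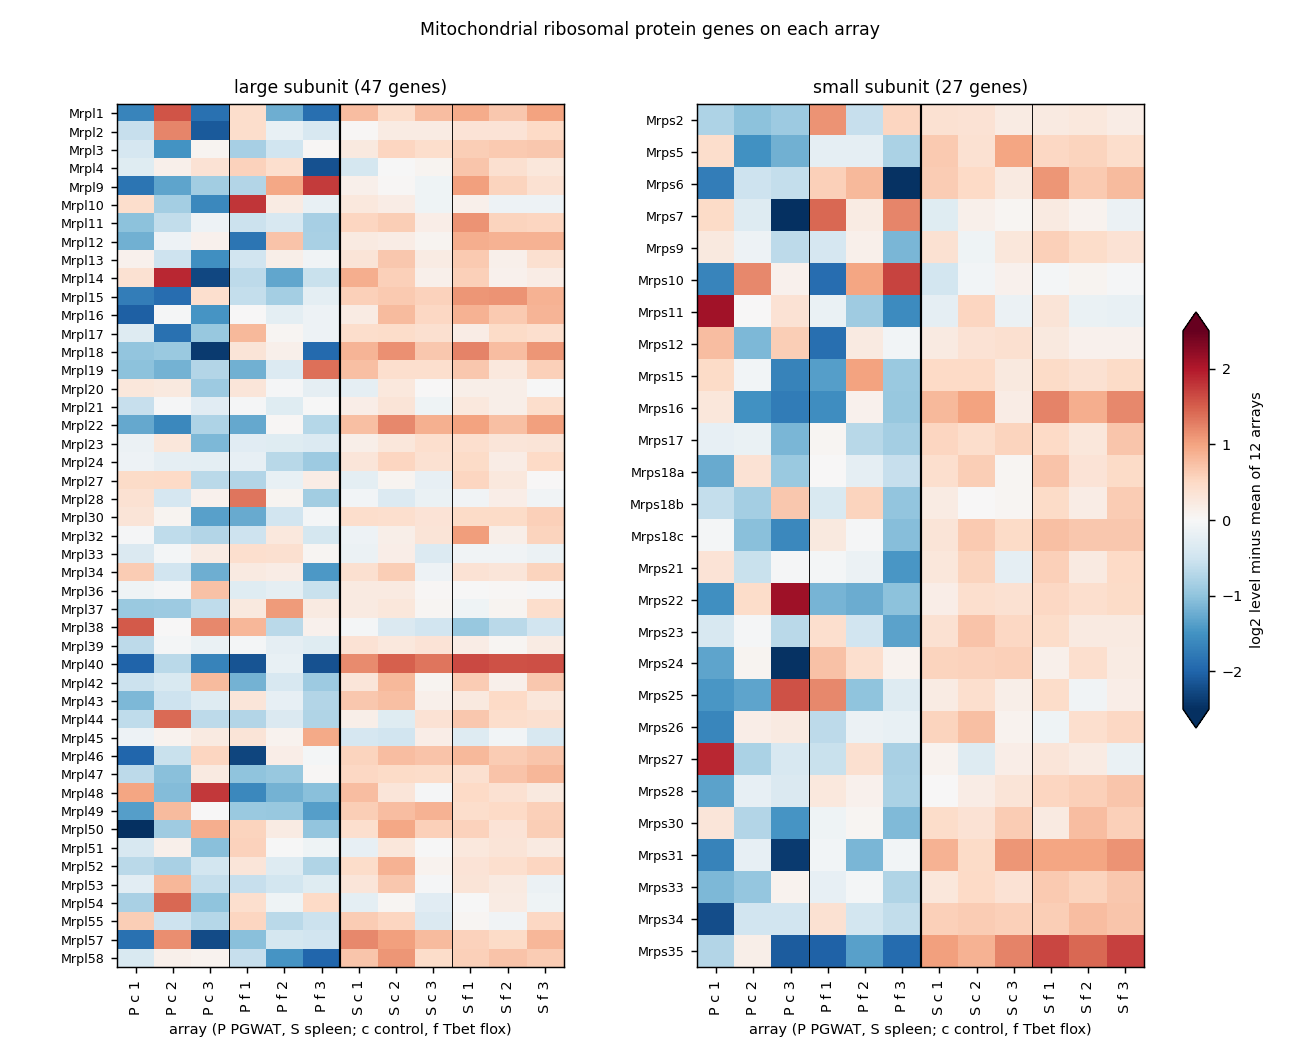
Heat map of the 74 genes (rows, by subunit and number) on the 12 arrays (columns), as log2 level minus the gene's mean over the 12 arrays; blue is below and red above that mean, with colours ending at the limits of the bar. The 6 spleen columns are mostly above the mean and even, while the 6 PGWAT columns are mostly below it and vary from array to array.

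Mrpl40 showed the smallest p of the large subunit in both genotypes. It encodes a protein of mitochondrial ribosomes that bacteria lack, and in humans its gene lies in the region deleted in DiGeorge syndrome. Its log2 level was 4.47, 5.79 and 4.79 in PGWAT control and, in the other PGWAT group, 4.32, 6.28 and 4.30, with 7.65, 7.97 and 7.80 on the arrays of spleen control and 8.12, 8.07 and 8.07 on those of spleen Tbet flox. Every PGWAT array was below every spleen array, and it was detected on 1 of 3 PGWAT arrays of each genotype, so the PGWAT levels are close to background. It was 6.90-fold lower in control mice (log2 difference -2.79 ± 0.41 SE, limma adjusted p = 0.000661) and 8.72-fold lower in Tbet flox mice (-3.12 ± 0.41, adjusted p = 0.000448). It was lower past the threshold in all 23 alternative settings in both genotypes.

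Mrpl22 encodes the counterpart of a bacterial protein that lines the exit tunnel for the growing chain, and its promoter holds the NRF1 letters shown above. Its level was 4.68, 4.36 and 5.19 on the PGWAT control arrays and 4.69, 5.99 and 5.26 on the PGWAT Tbet flox arrays, against 6.71 to 7.17 on the 6 spleen arrays. It was detected on 3 of the 6 PGWAT arrays, and no PGWAT array reached the lowest spleen array. The difference was -2.18 ± 0.37 in control mice (limma adjusted p = 0.00171) and -1.58 ± 0.37 in Tbet flox mice (adjusted p = 0.0175).

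Mrpl15, which is related to a core protein of the bacterial large subunit, was the last large subunit gene called in both genotypes. Its level was 5.35, 5.18 and 7.51 on the PGWAT control arrays and 6.48, 6.22 and 6.83 on the PGWAT Tbet flox arrays, against 7.65, 7.74 and 7.65 on the spleen control arrays and 8.17, 8.21 and 7.94 on the spleen Tbet flox arrays. The third PGWAT control array came close to the spleen control level without reaching it. The difference was -1.68 ± 0.41 in control mice (limma adjusted p = 0.0148) and -1.60 ± 0.41 in Tbet flox mice (adjusted p = 0.0275). The control call was lost with the groups compared alone (adjusted p = 0.15), and 1 dimmer probe of the gene had the opposite sign in Tbet flox mice (1.14 ± 0.64).

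A further set of large subunit genes passed in control mice and not in Tbet flox mice, a difference that passed no test for any of them (the genotype effect between tissues). Mrpl18, the counterpart of a bacterial rRNA-binding protein, was at 6.97, 7.03 and 5.57 in PGWAT control against 8.82, 9.10 and 8.64 in spleen control (-2.33 ± 0.50, limma adjusted p = 0.00722). Its dimmer probe measured -0.64 ± 0.60. Mrpl17 was at 8.22, 6.68 and 7.59 against 8.98, 8.99 and 8.94 (-1.48 ± 0.34, adjusted p = 0.0113), and Mrpl16 at 5.66, 7.67 and 6.22 against 7.90, 8.48 and 8.21 (-1.68 ± 0.42, adjusted p = 0.0159). In each of the 3, the PGWAT control arrays were below the spleen control arrays. With the groups compared alone Mrpl18 stayed past the threshold (adjusted p = 0.0236), while Mrpl17 (0.0704) and Mrpl16 (adjusted p = 0.103) did not. Mrpl57 (-1.99 ± 0.55, limma adjusted p = 0.0260) overlapped, since PGWAT control 2 was at 8.06 while the other PGWAT control arrays were at 5.05 and 4.67 and spleen control was at 7.70 to 8.11, and it was lost with the groups alone (adjusted p = 0.213). Mrpl19 (-1.51 ± 0.45, limma adjusted p = 0.0378) has a dimmer probe that measured 1.28 ± 0.42 higher, so its 2 probes disagree.

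In Tbet flox mice the large subunit calls beyond the shared ones were Mrpl58, Mrpl49, Mrpl47 and Mrpl12. Mrpl58, a peptidyl-tRNA hydrolase built into the large subunit that frees stalled chains, was at 5.95, 5.06 and 4.55 in PGWAT Tbet flox against 7.11, 7.24 and 7.16 in spleen Tbet flox (-1.99 ± 0.39, limma adjusted p = 0.00709). In control mice it was at 6.14, 6.66 and 6.61 against 7.22, 7.62 and 6.98 (-0.80 ± 0.39, adjusted p = 0.192), and all 6 PGWAT arrays were below all 6 spleen arrays. Mrpl12, a protein of the stalk that draws in translation factors and also binds the mitochondrial RNA polymerase, was at 5.77, 8.31 and 6.78 against 8.50, 8.46 and 8.46 (-1.52 ± 0.42, limma adjusted p = 0.0398). Its second PGWAT Tbet flox array was close to spleen while the first was far below. Mrpl49 fell by 1.59 (SE 0.37, adjusted p = 0.0190) and Mrpl47 by 1.29 (SE 0.35, adjusted p = 0.0370), and 2 of the 3 other probes of Mrpl49 measured higher (0.67 and 0.48). With the groups compared alone Mrpl47 (adjusted p = 0.0520) and Mrpl12 (adjusted p = 0.153) did not pass.

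Mrps35 was the small subunit gene that passed in both genotypes. It encodes a protein of the small subunit that bacteria lack. Its level was 5.68, 6.56 and 4.33 on the PGWAT control arrays, 4.39, 5.04 and 4.49 on the PGWAT Tbet flox arrays, 7.44, 7.28 and 7.66 on the spleen control arrays and 8.09, 7.84 and 8.13 on the spleen Tbet flox arrays. It was detected on 2 of 3 PGWAT control and 1 of 3 PGWAT Tbet flox arrays, and on all spleen arrays. The difference was -1.93 ± 0.41 in control mice (3.82-fold, limma adjusted p = 0.00666) and -3.38 ± 0.41 in Tbet flox mice (10.4-fold, adjusted p = 0.000248), and the Tbet flox call held in all 23 alternatives. The control call held in 21 of 23 and was lost with the groups compared alone (adjusted p = 0.0811).

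The other small subunit calls in control mice included Mrps31, Mrps34, Mrps24 and Mrps2. Mrps31, also particular to mitochondrial ribosomes, was at 5.82, 7.27 and 5.09 in PGWAT control against 8.35, 7.97 and 8.58 in spleen control (-2.24 ± 0.45, limma adjusted p = 0.00527). Its dimmer probes measured -0.60, -1.34 and -0.06. Mrps34, mutated in a form of the human Leigh syndrome, was at 7.33, 9.07 and 9.08 against 10.15, 10.19 and 10.14 (-1.67 ± 0.36, adjusted p = 0.00819). Both stayed below all spleen arrays in Tbet flox mice too, at 6.35 to 7.42 and at 8.94 to 9.94. With the groups compared alone neither control call passed (adjusted p = 0.0565 for Mrps31 and 0.090 for Mrps34).

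Mrps24 and Mrps2, relatives of bacterial small subunit proteins, had their lowest mean in PGWAT control. Mrps24 was at 8.02, 9.42 and 6.88 there, at 10.08, 9.75 and 9.43 in PGWAT Tbet flox and at 9.46 to 9.94 on the spleen arrays. Mrps2 was at 5.00, 4.76 and 4.86 on the PGWAT control arrays, at 6.91, 5.20 and 6.33 on the PGWAT Tbet flox arrays and at 5.97 to 6.16 on the spleen arrays. The tissue difference was -1.81 ± 0.41 for Mrps24 (limma adjusted p = 0.00946) and -1.22 ± 0.32 for Mrps2 (adjusted p = 0.0221) in control mice, and 0.16 ± 0.41 and 0.14 ± 0.32 in Tbet flox mice (adjusted p = 0.859 and 0.846). The difference between these differences did not pass the threshold for either (adjusted p = 0.239 and 0.290). Mrps5 (-1.43 ± 0.42, adjusted p = 0.0372, its other probe at 0.02) and Mrps33 (-1.05 ± 0.31, adjusted p = 0.0379) were the last small subunit calls in control mice besides Mrps18c. With the groups compared alone Mrps2 passed (adjusted p = 0.0145), and Mrps24 (adjusted p = 0.121), Mrps5 (0.153) and Mrps33 (0.124) did not.

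In Tbet flox mice the small subunit call beside Mrps35 was Mrps16, mutated in a human mitochondrial disease. It was at 4.54, 6.18 and 5.14 in PGWAT Tbet flox against 7.32, 6.99 and 7.29 in spleen Tbet flox (-1.91 ± 0.53, limma adjusted p = 0.0404). In control mice it was at 6.36, 4.57 and 4.34 against 6.90, 7.09 and 6.28 (-1.67 ± 0.53, adjusted p = 0.0522). A single PGWAT control array overlapped the lowest spleen control array.

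**Figure D2:**
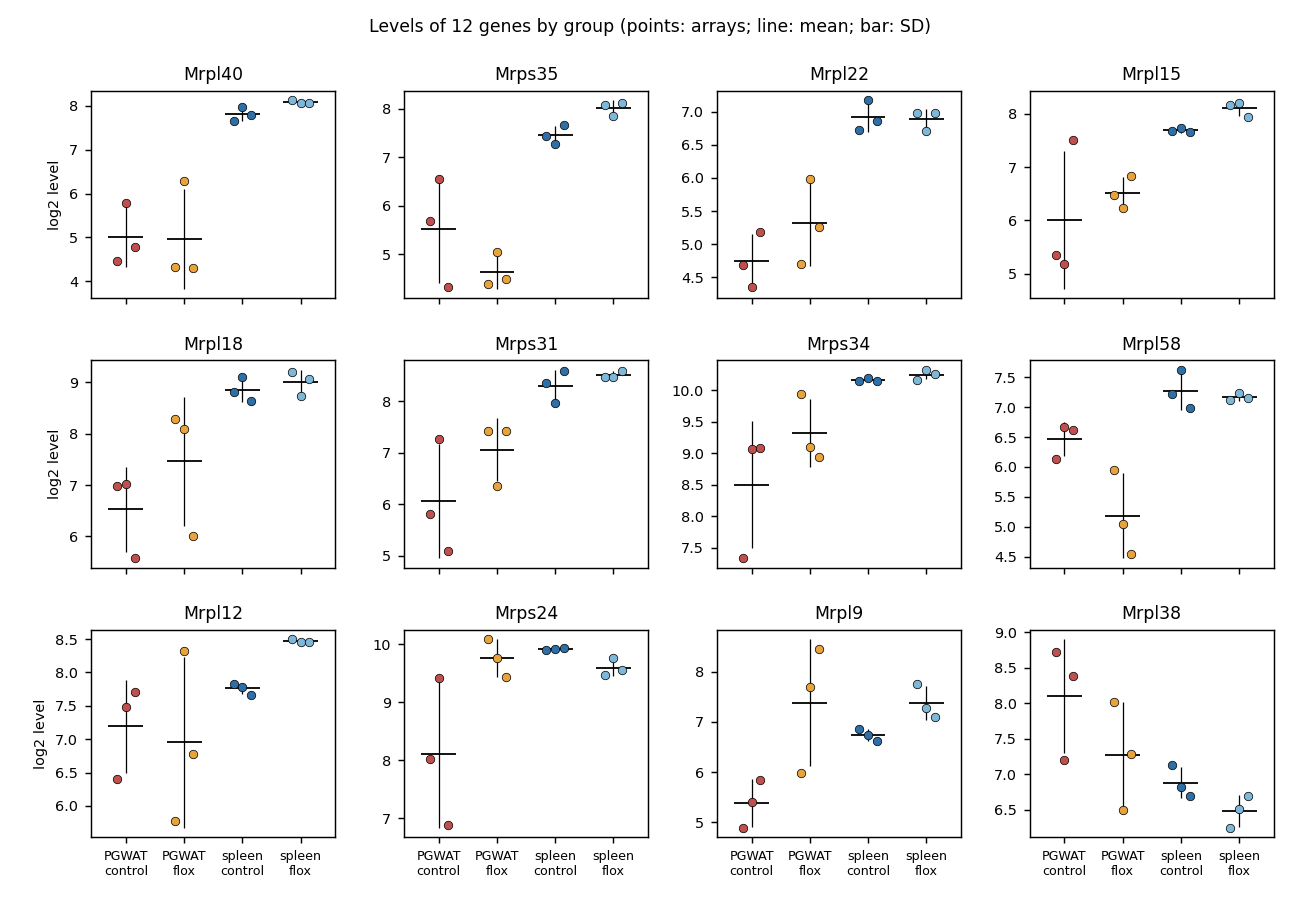
Log2 level of 12 of the genes on each array (points), by group, with the group mean (line) and SD (bar). Spleen arrays lie close together; Mrpl40, Mrps35 and Mrpl22 are separated by tissue in both genotypes, Mrps24 and Mrpl9 are low in PGWAT control, and Mrpl38 is highest in PGWAT control.

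Mrps18a, Mrps18b and Mrps18c are paralogs of 1 bacterial protein, and in mammalian structures the Mrps18a and Mrps30 proteins sit in the large subunit despite their symbols. Mrps18c, the only one of the 4 that passed the threshold, was at 9.71, 8.71 and 8.13 in PGWAT control against 10.07, 10.40 and 10.23 in spleen control (-1.39 ± 0.37, limma adjusted p = 0.0222, and 0.0917 with the groups compared alone), and its difference in Tbet flox mice was -0.98 ± 0.37 (adjusted p = 0.117). Mrps18a differed by -0.97 ± 0.41 in control and -0.78 ± 0.41 in Tbet flox mice (adjusted p = 0.134 and 0.268). Mrps18b differed by -0.35 ± 0.40 and -0.71 ± 0.40 (adjusted p = 0.615 and 0.306). Mrps30 differed by -1.12 ± 0.42 and -0.91 ± 0.42 (adjusted p = 0.0910 and 0.202). All 4 measured lower in PGWAT in both genotypes, and whether the paralogs differ from each other was not tested.

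Of the genes singled out for known roles, Mrps12, Mrpl44 and Mrps22 did not pass the threshold. Mrps12, a protein of the decoding centre, was at 9.24, 7.35 and 9.10 on the PGWAT control arrays and 6.60, 8.70 and 8.41 on the PGWAT Tbet flox arrays, against 8.59 to 8.88 in spleen (-0.25 ± 0.45 and -0.73 ± 0.45, limma adjusted p = 0.755 and 0.349). Mrpl44, mutated in human infantile cardiomyopathy, was at 6.59 on PGWAT control 2 and 4.41 to 4.81 on the other PGWAT arrays (-0.02 ± 0.46 and -1.12 ± 0.46, adjusted p = 0.982 and 0.152). Mrps22, also a human mitochondrial disease gene, was at 5.33, 7.33 and 9.0 on the PGWAT control arrays and 5.71, 5.63 and 5.84 on the PGWAT Tbet flox arrays, against 7.03 to 7.39 in spleen (0.03 ± 0.51 and -1.61 ± 0.51, adjusted p = 0.974 and 0.0643). For the last, the PGWAT control arrays fell on both sides of spleen while all 3 PGWAT Tbet flox arrays were below it. A dimmer probe of Mrps22 had the larger difference in control mice (-0.94 ± 0.39) and the smaller in Tbet flox mice (-0.48 ± 0.39), and the Tbet flox difference of the brighter probe passed in 6 of 23 alternatives. Mrpl44 passed in Tbet flox mice in 1 of 23, the groups compared alone (adjusted p = 0.0238), as did Mrps22 there (adjusted p = 0.00455).

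The 6 genes that measured higher in PGWAT in both genotypes were Mrpl28, Mrpl33, Mrpl38, Mrpl45, Mrpl54 and Mrps10, named after their values were seen. Mrpl38, which has a domain related to lipid-binding proteins, was at 8.72, 7.20 and 8.39 on the PGWAT control arrays and 8.01, 6.50 and 7.29 on the PGWAT Tbet flox arrays, against 7.13, 6.83 and 6.70 on the spleen control arrays and 6.25, 6.51 and 6.70 on the spleen Tbet flox arrays. Its difference was 1.22 ± 0.42 in control mice (limma adjusted p = 0.0711) and 0.79 ± 0.42 in Tbet flox mice (adjusted p = 0.283), so it did not pass the threshold. Mrpl45, which helps anchor the ribosome at the inner membrane, measured 0.31 ± 0.40 and 0.72 ± 0.40 higher (adjusted p = 0.648 and 0.295). The remaining 4 differed by 0.02 to 0.40.

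**Figure D3:**
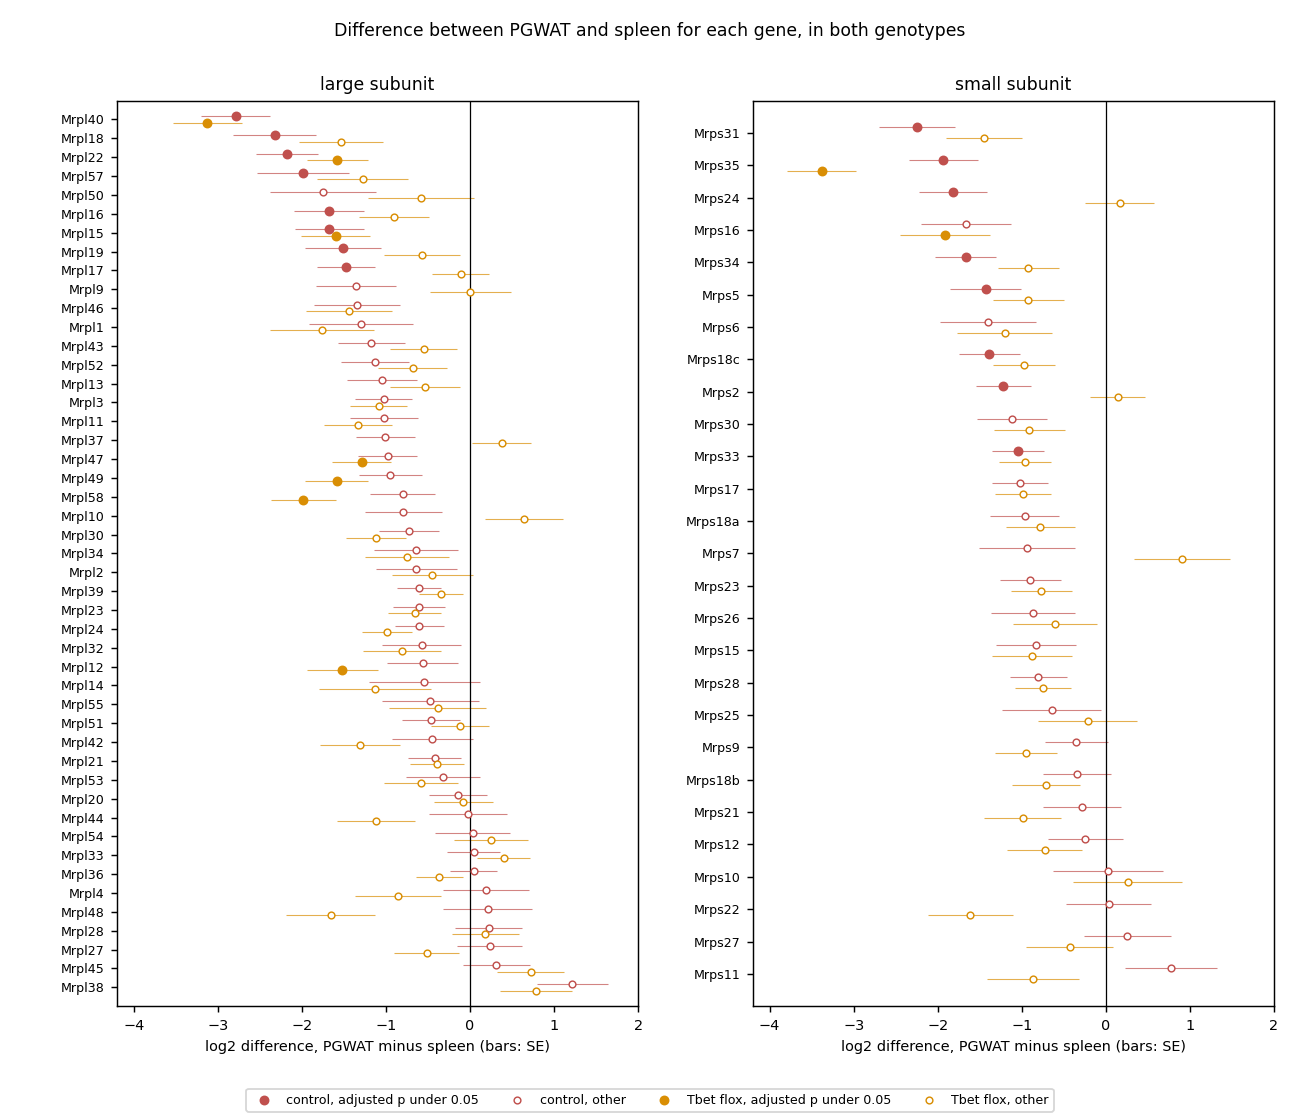
Log2 difference, PGWAT minus spleen, with its SE for each gene (rows, ordered by the control difference) in control and Tbet flox mice; filled points passed an adjusted p under 0.05. Most points lie left of 0 in both subunits, and the 16 filled control and 9 filled Tbet flox points are all left of 0.

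The calls in both genotypes overlapped in part. Mrpl15, Mrpl22, Mrpl40 and Mrps35 were lower in both, which is 25% of the 16 control and 44.4% of the 9 Tbet flox calls, against 28.4% and 49.1% of the calls among all genes and probes tested. These comparisons share no array but 1 estimate of the spread. Which genes passed depended on the fit and on single PGWAT arrays: with the groups compared alone, 8 genes passed in control mice, 5 of them among the 16, and 17 in Tbet flox mice, 7 of them among the 9. Without the array labelled PGWAT Tbet flox 1, whose Tbx21 level is high, 3 genes were lower in Tbet flox mice (Mrpl40, Mrpl58 and Mrps35), with medians of -0.78 and -1.02. Without PGWAT Tbet flox 2 or 3, 5 and 3 were. In control mice 11 were without PGWAT control 1, whose Foxp3 level is low, 13 without PGWAT control 2 and 10 without PGWAT control 3. Scaled to 1 median instead of quantiles, 19 genes were lower in Tbet flox mice, where the median of all tested moved to -0.28.

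Ribosomal proteins of the cytosol and the respiratory chain were set beside them without a test of the difference between the sets. Of 55 cytosolic ribosomal protein genes, 5 passed as lower in PGWAT in control and 6 in Tbet flox mice (medians -0.56 and -0.41). In all, 53 (96.4%) and 51 (92.7%) measured lower, against 82.4% and 83.8% of the 74 genes. The PGWAT arrays lay below the spleen arrays for 39 (70.9%) and 33 (60%), against 43.2% and 56.8% of the 74. Of 72 respiratory chain and ATP synthase genes, 3 and 4 passed as lower (medians -0.38 and -0.35). Of these 72, 59 and 53 measured lower, 28 (38.9%) and 30 (41.7%) without overlap. None of either set passed the threshold as higher. The median deviation of the mitochondrial ribosomal proteins from their mean over the 12 arrays was -0.56, -0.27 and -0.64 on the PGWAT control arrays and -0.18, -0.19 and -0.57 on the PGWAT Tbet flox arrays. It was 0.35, 0.45 and 0.22 on the spleen control arrays and 0.49, 0.36 and 0.49 on the spleen Tbet flox arrays, so all PGWAT arrays were below all spleen arrays. The subunit medians were furthest apart on PGWAT Tbet flox 3, where the small subunit was 0.39 below the large.

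**Figure D4:**
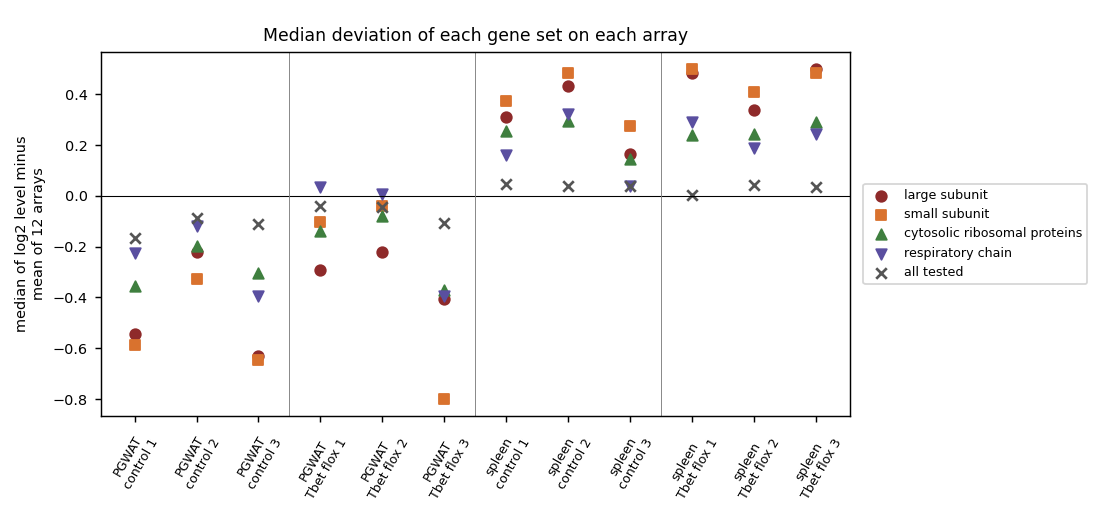
Median of the log2 level minus the mean over 12 arrays (vertical axis) for each gene set on each array. Large and small subunit genes are below 0 on the 6 PGWAT arrays and above 0 on the 6 spleen arrays, and on every array but PGWAT Tbet flox 2, where the small subunit is at the level of all genes tested, they lie further from 0 than all genes tested.

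Other genes of mitochondrial translation were described by lists. Of 24 measured assembly and rRNA factors, 10 were lower in PGWAT in control mice and 3 in Tbet flox mice (medians -0.68 and -0.79), and none was higher. Mterf4, which acts with a methyltransferase in building the large subunit, was at -2.76 ± 0.46 in control mice (limma adjusted p = 0.00170), and Ngrn, of a pseudouridine synthase module for the large rRNA, at -2.39 ± 0.42 (adjusted p = 0.00218). Of the same module, Trub2 was at -3.34 ± 0.68 (limma adjusted p = 0.00890) and Rpusd4 at -2.29 ± 0.50 (adjusted p = 0.0123) in Tbet flox mice. Of 4 measured mitochondrial ribosomal proteins with other symbols, Ptcd3 (-2.12 ± 0.46, adjusted p = 0.00741) and Chchd1 (-1.61 ± 0.45, adjusted p = 0.0283) were lower in control mice and none passed in Tbet flox mice.

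Translation factors and tRNA synthetases had fewer calls. Of 11 translation factors, Gfm2, which recycles the ribosome, was lower in control mice (-2.03 ± 0.34, limma adjusted p = 0.00176) and none in Tbet flox mice. Of 15 mitochondrial aminoacyl-tRNA synthetases, none passed in control mice and Ears2, for glutamate, was lower in Tbet flox mice (-1.61 ± 0.39, adjusted p = 0.0206). Of 11 regulators, Yy1 (-1.60 ± 0.44, adjusted p = 0.0254), Tfam (-1.38 ± 0.39, adjusted p = 0.0295) and Nrf1 (-1.17 ± 0.34, adjusted p = 0.0336) were lower in control mice. In Tbet flox mice Tfam, which packages mitochondrial DNA and starts its transcription, was lower (-2.42 ± 0.39, adjusted p = 0.00205), as was Gabpa (-1.18 ± 0.30, adjusted p = 0.0272), while Gabpb1, the partner of Gabpa, was higher (1.91 ± 0.48, adjusted p = 0.0245). Nrf1 and Gabpa are named because their motifs were searched, after their values were seen. Of the genes called in either genotype with a promoter, 5 of 17 (29.4%) hold a searched motif, as do 20 of the other 48 (41.7%).

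Markers of other cells moved with the tissue and with the genotype, and their part in the result was not tested. The summed level of 12 of 16 macrophage and monocyte markers that were measured ran from 18263 to 20590 on the PGWAT control arrays, 2055 to 12843 in PGWAT Tbet flox, 3006 to 4137 on the spleen control arrays and 2529 to 3199 on the spleen Tbet flox arrays. Of these, 10 were higher in PGWAT in control mice and 4 in Tbet flox mice, among them Lyz2 (4.08 ± 0.63 and 2.63 ± 0.63), C1qa (3.73 ± 0.44 and 1.69 ± 0.44) and Cd14 (3.26 ± 0.44 and 1.64 ± 0.44), with Cd14 not detected on any spleen array. Of 6 measured stromal and endothelial markers, 5 and 4 were higher in PGWAT, where their sum ran from 1668 to 9021 against 226 to 268 in spleen. Col1a2, Col3a1, Dcn and Sparc were not detected in spleen. Of 10 T cell markers, 4 were lower in control mice, where their sum ran from 4962 to 8820 in PGWAT against 10531 to 11192 in spleen. In Tbet flox mice it ran from 9807 to 10444 against 10197 to 10994, with 1 marker higher and 1 lower.

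The summed level of 5 measured Treg markers ran from 1050 to 2398 on the PGWAT control arrays, 3048 to 4101 on the PGWAT Tbet flox arrays, 1834 to 2158 on the spleen control arrays and 2222 to 2767 on the spleen Tbet flox arrays. That of 3 adipocyte markers ran from 93.3 to 443 in PGWAT and from 60.4 to 64.9 in spleen, where none was detected, and 2 of the 3 were higher in PGWAT in control mice. Cd79b, the 1 B cell marker measured, ran from 22.2 to 100 in PGWAT and from 87.4 to 124 in spleen. Detected probes overlapped between tissues, with 11252 to 16164 on a PGWAT array and 14280 to 17090 on a spleen array, and of the 74 genes 59 to 72 and 73 to 74 were detected.

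The genotype comparison set the Tbet flox samples beside the control samples of each tissue, and their cell markers differed too. In PGWAT all 12 macrophage and monocyte markers measured lower in Tbet flox (median -1.83). All 5 Treg markers (median 1.15) and 9 of 10 T cell markers (median 0.50) measured higher there, and no marker of these lists passed. In spleen 11 of the 12 macrophage and monocyte markers measured lower (median -0.73), 1 of them past the threshold. The part of these markers in the genotype differences was not tested. No mitochondrial ribosomal protein gene passed the threshold for genotype in PGWAT (0.209% of all tested did), in spleen (1.76%) or for the genotype effect between tissues (0.0719%), with limma; 10, 10 and 9 of the 74 had an unadjusted p under 0.05 (13.5%, 13.5% and 12.2%), against 9.94%, 17.9% and 10.5% of all tested. In PGWAT the median difference, Tbet flox minus control, was 0.14 for the large and 0.25 for the small subunit, with 0.04 for all tested. There 44 of 74 measured higher, against 8019 of 15308 tested. Without the array labelled PGWAT Tbet flox 1 none passed either, and the medians were 0.14 and 0.20. The large subunit median was 0.06 without PGWAT control 1, 0.07 without PGWAT control 3, 0.22 without PGWAT control 2 and 0.25 without PGWAT Tbet flox 3. The small subunit median was 0.01 without PGWAT Tbet flox 2 and 0.14 without PGWAT control 1, so the size of both rests on single arrays. In spleen the medians were 0.07 and 0.13, with -0.01 for all tested, and 45 of 74 measured higher, against 7439 of 15308 tested. With each array left out in turn the spleen medians ran from 0.03 to 0.13 and from 0.08 to 0.15. The median SD of a gene between the arrays of a group was 0.80 on the PGWAT control arrays, 0.54 on the PGWAT Tbet flox arrays, 0.20 on the spleen control arrays and 0.15 on the spleen Tbet flox arrays.

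Of the 10 genes with an unadjusted p under 0.05 in PGWAT, 6 measured higher and 4 lower in Tbet flox. Mrpl9, whose promoter with overlapping NRF1 letters is shown above, was at 4.89, 5.40 and 5.84 on the PGWAT control arrays and 5.99, 7.69 and 8.46 on the PGWAT Tbet flox arrays, so the groups did not overlap (2.00 ± 0.65, limma adjusted p = 0.30). Mrps24 (1.65 ± 0.55, adjusted p = 0.319), Mrps2 (1.27 ± 0.44, adjusted p = 0.326), Mrpl37 (1.33 ± 0.48, adjusted p = 0.348) and Mrpl17 (1.29 ± 0.46, adjusted p = 0.349) did not overlap either. Of the 74 genes, 5 were higher without overlap, against 1307 of the 15308 tested, and 3 were lower (4.05%), against 916 (5.98%). Groups without overlap were thus no more frequent among these genes. Mrps7, a small subunit protein that binds rRNA, overlapped (1.93 ± 0.77, adjusted p = 0.414), and its dimmer probe had the opposite sign (-0.86 ± 0.97). The 4 lower ones, of which Mrps11 was named after its values were seen, were Mrpl48 (-1.83 ± 0.72, adjusted p = 0.404) and Mrps22 (-1.49 ± 0.68, adjusted p = 0.50), with overlap, and Mrpl58 (-1.28 ± 0.52, adjusted p = 0.437) and Mrps11 (-1.70 ± 0.74, adjusted p = 0.473), without. Dimmer probes measured 0.32 ± 0.40 for Mrpl9, 0.34 ± 0.49 for Mrpl37, 0.25 ± 0.53 for Mrps22, -0.06 ± 0.59 for Mrps11, and -1.91, -0.42 and 0.01 for Mrpl48. Of 28 genes with several kept probes, 13 had all probes of 1 sign in this comparison. The median SE of a gene in this comparison was 0.56. Differences well above that size, up to the 2.00 of the brighter Mrpl9 probe, did not pass, so only very large ones could have been resolved.

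In spleen, where arrays were close, the difference with the smallest p was Mrpl12, at 7.83, 7.79 and 7.66 in control and 8.50, 8.46 and 8.46 in Tbet flox. The groups were well apart, and the difference was 0.71 ± 0.18 (1.64-fold, limma adjusted p = 0.0607), past the threshold in 6 of 23 alternatives. Mrpl9 (0.64 ± 0.20, adjusted p = 0.116), Mrps35 (0.56 ± 0.17, adjusted p = 0.108), Mrpl4 (0.59 ± 0.22, adjusted p = 0.174) and Mrps28 (0.44 ± 0.14, adjusted p = 0.124) also measured higher without overlap. In all, 15 of the 74 genes were higher without overlap in spleen, against 1756 of the 15308 tested. A further 4 were lower (5.41%), against 1786 (11.7%). The share was thus larger than over all tested for higher genes and smaller for lower ones, and this was not tested. Mrps18b measured 0.35 ± 0.17 higher, with overlap (adjusted p = 0.306).

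**Figure D5:**
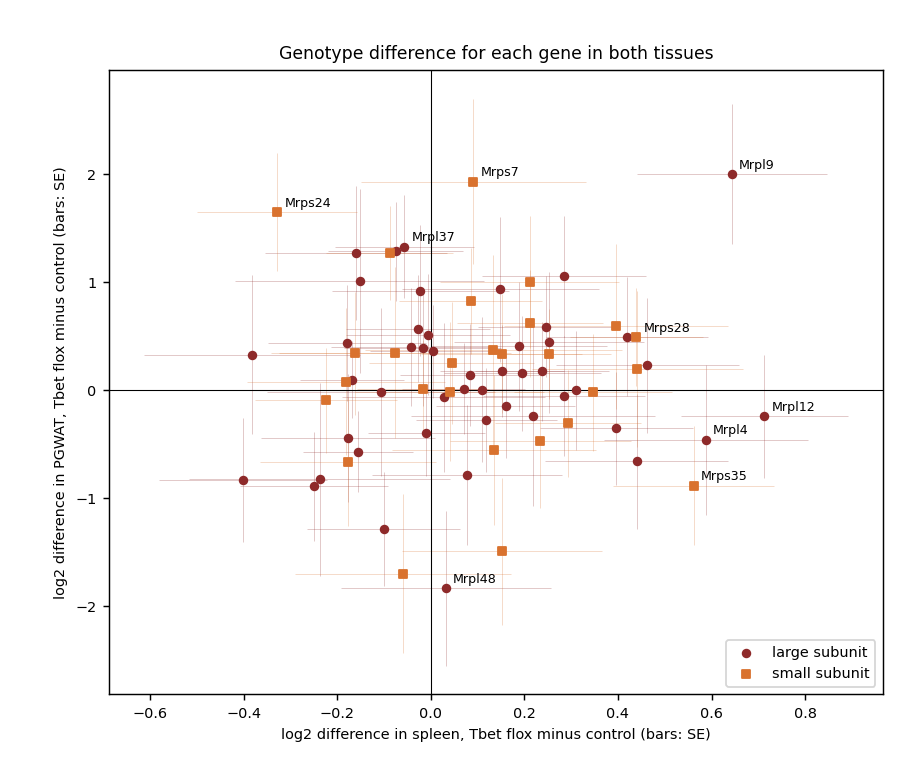
Log2 difference, Tbet flox minus control, in spleen (horizontal axis) and PGWAT (vertical axis, a wider scale) for each gene, with SE bars. No point passed the adjusted threshold in either tissue; Mrpl9 is high on both axes, Mrpl12 in spleen.

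For the genotype effect between tissues, Mrps24 had the smallest p (1.98 ± 0.57, limma adjusted p = 0.239), with Mrps2 (1.36 ± 0.46, adjusted p = 0.290) and Mrpl17 (1.36 ± 0.48, adjusted p = 0.322) next. Mrpl37 measured 1.39 ± 0.50 (adjusted p = 0.330, its dimmer probe at 0.35 ± 0.51), Mrps35 -1.45 ± 0.58 (adjusted p = 0.392) and Mrpl48 -1.87 ± 0.75 (adjusted p = 0.397). Mrpl48 was at 6.92, 4.85 and 7.72 on the PGWAT control arrays, 4.33, 4.76 and 4.90 on the PGWAT Tbet flox arrays and 5.91 to 6.71 in spleen. Its PGWAT control arrays spread over more than the whole range of spleen.

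The spread among PGWAT arrays differed from gene to gene, and the genes named for it were chosen after their values were seen. In PGWAT control it was narrowest for Mrpl24 (SD 0.07) and widest for Mrpl14 (SD 2.11), and in PGWAT Tbet flox narrowest for Mrpl23 (0.03) and widest for Mrps10 (1.90). The widest SD in spleen was 0.54, for Mrpl55. PGWAT control 3 held the lowest of the 12 values for 23 genes, PGWAT control 1 for 17 and PGWAT Tbet flox 3 for 16, while PGWAT Tbet flox 2 held it for none. Of 28 genes with several kept probes, 18 had all probes of 1 sign for tissue in control mice and 20 in Tbet flox mice. Mrpl53, not detected on any PGWAT Tbet flox array, measured higher in spleen Tbet flox without passing the threshold (mean 5.11 against a measured 4.52, limma adjusted p = 0.460). With its PGWAT Tbet flox values raised to the lowest detected level of each array, the means differed 1.13-fold.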

How the data were processed

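Tregs of 4 groups were measured on 12 Illumina MouseWG-6 arrays, 6 on each of 2 chips, after amplification with the NuGen Ovation Pico system per the labels, which give 5 pg of total RNA (the unit was not checked). The deposited table holds a bead signal intensity per probe and array, not normalized, per the file headers. Beside each intensity the deposited table gives a detection p-value, per the file headers, and both come from GenomeStudio per the submitters' processing notes (version not stated). The authors' processed intensity table served as an alternative.

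Signals were corrected and quantile normalized with neqc (limma 3.58.1, R 4.3.3, offset 16, log2, background from detection p-values). Probes with detection p under 0.05 on at least 3 arrays were kept (22833), and the brightest stood for its gene. Symbols come from the platform annotation (34885 of 45281 probes have 1 symbol, 18 several, 10378 none). All 12 arrays were fitted with 1 mean per group and 1 weight per tissue (0.313 for PGWAT, 3.20 for spleen), with moderated two-sided tests, 8 residual degrees of freedom and Benjamini-Hochberg adjustment over all 15308. Values after ± are SE of that fit. Tested on simulated data, this fit made more false calls than its threshold allows where PGWAT arrays enter. The fit of the groups compared alone is given beside the tissue calls it ends, but it was not run on simulated data. Levels of different genes are not compared, since probes differ in brightness.

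The named genes are, per comparison and subunit, up to 6 past the threshold by p, or else the 3 with the smallest p, with others chosen for their roles and up to 2 per list. The members, lists and settings were chosen with earlier results of these data known. Replicate numbers did not pair the arrays: 18 correlations of same-numbered arrays ran from -0.20 to 0.08.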

Additional observations from a re-analysis of the deposited data

How the results depend on the processing

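For tissue in control mice the count of lower genes was 16, with 8 for the groups compared alone, 10 without PGWAT control 1 and PGWAT Tbet flox 3 together, and 10 to 19 when each array was left out. For tissue in Tbet flox mice it was 9, with 20 for 1 weight per array, 17 for the groups alone, 19 when scaled to 1 median, 5 without that pair and 3 to 15 when each array was left out. For genotype in PGWAT 1 gene passed with no weights. For genotype in spleen 2 passed with 1 weight per array, with the authors' table and with an offset of 50, 1 with a detection p under 0.01 and with the mean of a gene's probes, and 0 to 1 when each array was left out. For the genotype effect between tissues 0 to 1 did. The cause of these moves was not tested.

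The median difference of the large subunit for genotype in PGWAT was -0.0423 when scaled to 1 median. For tissue in control mice the medians were -0.44 (large) and -0.50 (small) with the authors' table, and -0.68 (small) with an offset of 50. For tissue in Tbet flox mice they were -0.92 (large) when scaled to 1 median, -0.41 and -0.51 with the authors' table, and for the large subunit -0.55 with an offset of 50, -0.59 with the mean of a gene's probes, and -0.7848 to -0.6247 when each array was left out. For the genotype effect between tissues the large subunit ran from -0.083 to 0.1642 when each array was left out. Of the tissue differences in control mice that are close to 0, Mrpl44 turned to 0.10 with 1 weight per array, 0.0308 with the authors' table, 0.0618 with an offset of 50 and 0.32 without the pair, and Mrps22 to -0.0406 when scaled and -0.45 with the mean of its probes. With each array left out, Mrpl44 ran from -0.7129 to 0.3277, Mrps22 from -0.8557 to 0.9779 and Mrps12 from -0.5871 to 0.3604.

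With the replicate number as a block (replicate block), which the arrays do not bear out as pairs, 14 genes were lower in control mice and 8 in Tbet flox mice, and 0 passed for either genotype comparison. Levels near background in PGWAT limit the size of the folds.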
